A study of Mus musculus with 16 samples.

Results

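H3K4me3 peaks of CD8+ T cells cultured with an LSD1 inhibitor were compared with those of vehicle-treated cells. All peaks of both H3K4me3 lists were taken, 15779 from vehicle (Veh) cells and 16887 from inhibitor (GSK) cells, which together are 32666 of the 214352 peaks of the 12 lists analysed here. The series holds 16 samples, of which 12 are ChIP libraries of 6 antibodies (H3K4me1, H3K4me2, H3K4me3, H3K27ac, LSD1 and Pol II) and 4 are inputs. The cells were splenic CD8+ T cells of OT1 mice, whose transgenic receptor recognises an ovalbumin peptide, stimulated through CD3 and CD28 for 48 h and then expanded for 3 days in IL-2. GSK cells received GSK2879552, an irreversible LSD1 inhibitor, at 0.5 μM throughout both phases, and Veh cells received the vehicle alone. Both groups carried the same receptor transgene and went through the same culture, which takes place outside the animal and without tumour or antigen-bearing cells. Each group is 1 ChIP-seq library, so no difference below could be set against a spread between replicates, no test was made, and the treatment cannot be told apart from a difference between these libraries.

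H3K4me3 is the trimethyl mark on lysine 4 of histone H3. It is laid down by SET1 and MLL complexes at promoters, above all at CpG islands, and typically spreads from the nucleosomes beside the transcription start site (TSS) into the first part of the gene body, with RNA polymerase II (Pol II) at active ones. LSD1 (Kdm1a) removes methyl groups from H3K4me1 and H3K4me2 by a reaction that cannot act on the trimethyl state. H3K4me3 is therefore not a direct substrate of the inhibited enzyme, and the lower states that precede it are.

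The lists showed the marks of CD8+ T cells. An H3K4me3 peak lay within 1 kb of a TSS of all 5 CD8 T cell markers (Cd8a, Cd8b1, Cd3e, Cd3d and Thy1) in both treatments. Of the markers of other lineages, 1 of 4 for CD4 T cells (Zbtb7b), 1 of 5 for B cells (Ebf1), 1 of 4 for NK cells (Klrk1) and 3 of 5 for erythroid cells had a peak in both treatments. Of 6 myeloid markers, Cd14 and Cebpa had a peak in both and Spi1 in Veh cells only. The defining markers Cd4, Foxp3, Cd79a, Ms4a1, Lyz2 and Itgam had none in either treatment.

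Promoter sequences next to peaks found in a single list are printed first, as examples of the DNA there. They were taken from the strongest such promoter peaks that held a TSS or lay within 100 bp of one, where the stretch was free of exons. By this rule promoter peaks stronger than a shown one of their set were passed over. They were those of Zxdb, Tent5b, Meis2 and Enho among the GSK-only and of Lta and Zfp97 among the Veh-only ones. All are from the GRCm38.p6 reference (the mm10 build of the files), overlap no exon, and have each CpG dinucleotide in capitals. The promoters give the 200 bases just before the TSS, on the strand of the gene, and need not lie in the peak. The stretch of She is mostly inside its peak, those of Hoxa13 and Grb10 only touch the end of theirs, and that of Morn4 is outside. She (chr3:89831170-89831369, plus strand), Hoxa13 (chr6:52260881-52261080, minus strand) and Grb10 (chr11:12037421-12037620, minus strand) had a peak in GSK cells only with the TSS inside it. Morn4 (chr19:42086371-42086570, minus strand) had one in Veh cells only, which ended 73 bp from its TSS.
She: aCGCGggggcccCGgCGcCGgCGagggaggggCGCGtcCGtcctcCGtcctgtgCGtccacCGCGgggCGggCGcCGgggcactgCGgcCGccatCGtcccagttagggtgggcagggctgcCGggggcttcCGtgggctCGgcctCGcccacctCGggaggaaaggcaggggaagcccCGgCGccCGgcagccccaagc
Hoxa13: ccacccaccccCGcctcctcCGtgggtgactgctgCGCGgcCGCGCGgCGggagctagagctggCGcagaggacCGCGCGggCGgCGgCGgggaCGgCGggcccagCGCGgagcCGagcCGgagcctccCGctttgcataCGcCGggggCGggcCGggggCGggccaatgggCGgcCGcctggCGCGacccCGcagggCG
Grb10: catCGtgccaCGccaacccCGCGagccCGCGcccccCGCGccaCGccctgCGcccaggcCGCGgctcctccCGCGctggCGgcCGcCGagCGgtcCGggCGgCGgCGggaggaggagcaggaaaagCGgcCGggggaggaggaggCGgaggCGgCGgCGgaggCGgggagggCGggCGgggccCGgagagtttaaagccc
Morn4: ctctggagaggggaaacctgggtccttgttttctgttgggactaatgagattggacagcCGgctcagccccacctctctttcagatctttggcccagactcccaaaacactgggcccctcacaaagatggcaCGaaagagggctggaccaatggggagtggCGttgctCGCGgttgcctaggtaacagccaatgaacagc

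The GSK-only promoters of She, Hoxa13 and Grb10 held 27, 33 and 32 CpGs in their 200 bases, and the Veh-only promoter of Morn4 held 5. These 4 are examples and not a comparison of the sets. The Veh-only promoter peaks of Arhgap9 and Akain1 were CpG-rich, with an observed to expected CpG ratio of 0.85 and 0.76 around the peak centre, and that of Morn4 had a ratio of 0.56. GSK-only promoters also varied. Ccl3 (chr11:83649379-83649578, minus strand), a chemokine gene of effector T cells, is shown because it was 1 of 2 GSK-only genes among the listed effector genes, and it held 2 CpGs. The strongest peaks away from promoters are shown by their central bases on the plus strand, GSK-only on chromosome 6 (chr6:47753257-47753451) and Veh-only on chromosome 9 (chr9:114583962-114584161), with 18 and 11 CpGs.
Ccl3: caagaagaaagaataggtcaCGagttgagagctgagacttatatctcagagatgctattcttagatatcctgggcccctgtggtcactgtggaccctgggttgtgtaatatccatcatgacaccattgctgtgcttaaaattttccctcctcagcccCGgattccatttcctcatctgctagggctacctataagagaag
GSK-only intergenic peak: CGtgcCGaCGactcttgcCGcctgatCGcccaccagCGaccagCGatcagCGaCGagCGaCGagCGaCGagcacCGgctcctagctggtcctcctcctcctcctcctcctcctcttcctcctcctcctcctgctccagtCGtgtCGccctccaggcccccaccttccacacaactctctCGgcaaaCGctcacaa
Veh-only intergenic peak: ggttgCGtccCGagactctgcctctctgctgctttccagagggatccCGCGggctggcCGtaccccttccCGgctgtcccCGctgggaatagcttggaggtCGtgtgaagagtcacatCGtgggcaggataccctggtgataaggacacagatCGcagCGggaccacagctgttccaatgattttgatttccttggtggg

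To see where the lists differed, every peak was matched to the other list at an overlap of 1 bp. In all, 420 Veh peaks had no GSK peak and 1509 GSK peaks had no Veh peak, while 15284 peaks of each list were paired one to one. Peaks of 1 list only were weak and narrow. At a −log10 p from 20 to 50, none of 2909 Veh peaks was missing from the GSK list and 2 of 3045 GSK peaks were missing from the Veh list, and above 50 no peak of either list was without a partner. Among the weakest peaks, with a −log10 p from 5 to 7, the share with no partner was 30.1% in the Veh list (Wilson 95% interval 27.2 to 33.2, which here as elsewhere covers counting error only) and 66.5% (63.5 to 69.4) in the GSK list. By width, 216 of the 420 Veh-only peaks and 620 of the 1509 GSK-only peaks were under 300 bp. Of peaks from 1000 to 2000 bp, 3 of 6955 in Veh cells and 36 of 7325 in GSK cells had no partner. Strong and wide H3K4me3 peaks thus lay in the same places in both libraries, and the peaks that differed were near the threshold of the lists.

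**Figure D1:**
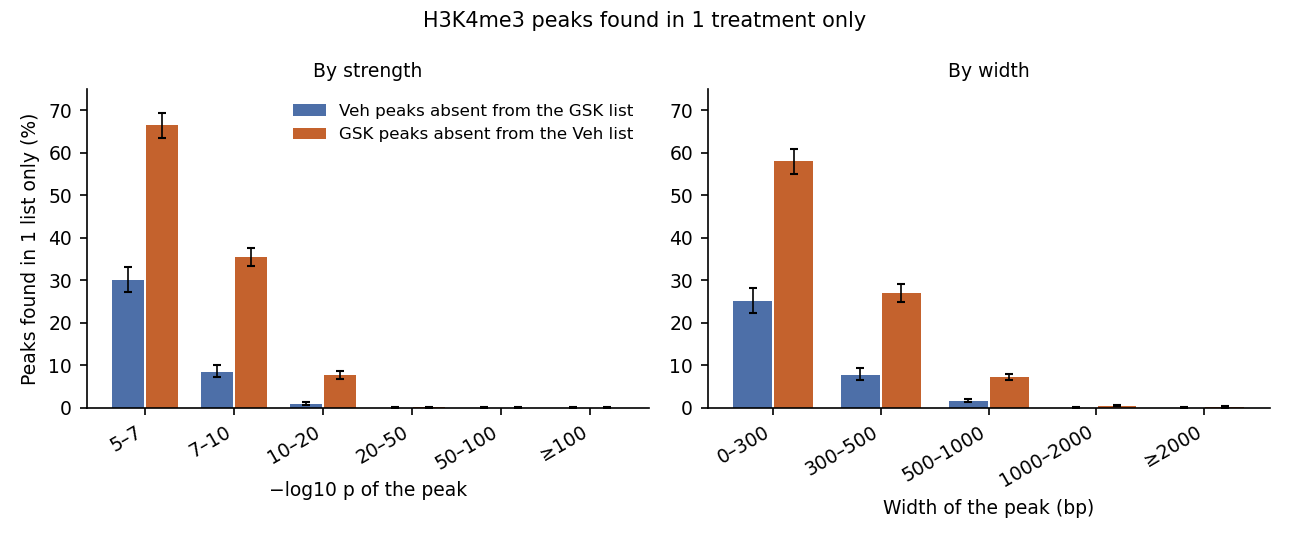
Share of H3K4me3 peaks found in 1 list only, by −log10 p (left) and by peak width in bp (right), for Veh peaks (blue) and GSK peaks (orange), with Wilson 95% intervals as bars. The share falls from 30.1% and 66.5% at a −log10 p from 5 to 7 to 0 and 0.0657% from 20 to 50.

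The number of GSK-only peaks was larger than that of Veh-only peaks in the lists as deposited. With both lists held to a −log10 q of at least 5, 1318 peaks were GSK-only and 314 Veh-only. With the GSK list shortened to the 15779 strongest peaks, 797 peaks were GSK-only and 810 Veh-only. Lists of equal length that match almost one to one must leave nearly equal counts. That setting therefore cannot show where the excess came from. The depth of the libraries cannot be read from the peak lists. The study gives slightly more read pairs for the GSK H3K4me3 library and fewer for the GSK input, and their part in the counts was not tested. The lists also differed in the geometry of the calls. The narrowest peak was 197 bp in the Veh list and 177 bp in the GSK list, the smallest gap between neighbours was 789 bp and 710 bp, and 151 of the GSK-only peaks were narrower than any Veh peak. When those narrow peaks were left out and GSK peaks closer than 789 bp were joined, 1351 GSK-only and 463 Veh-only peaks remained.

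Unlike the shared peaks, peaks of 1 list lay mostly away from promoters. A TSS lay within 1 kb of 74.1% (73.4 to 74.8) of shared Veh peaks, of 18.1% (14.7 to 22.1) of Veh-only peaks and of 24.5% (22.4 to 26.7) of GSK-only peaks. Introns held 35.2% of Veh-only and 29.8% of GSK-only peaks, against 7.75% of shared Veh peaks, and intergenic sequence held 39.5% and 37.2%, against 13.7%. Weak shared peaks also lay mostly away from TSSs. Of weak shared GSK peaks (−log10 p under 10) 28.1% (25.9 to 30.4) were at a TSS, beside 22.2% (20.0 to 24.5) of weak GSK-only peaks. With GENCODE M21, which lists more TSSs, the shares at a TSS were 30.7% of Veh-only and 34.9% of GSK-only peaks.

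**Figure D2:**
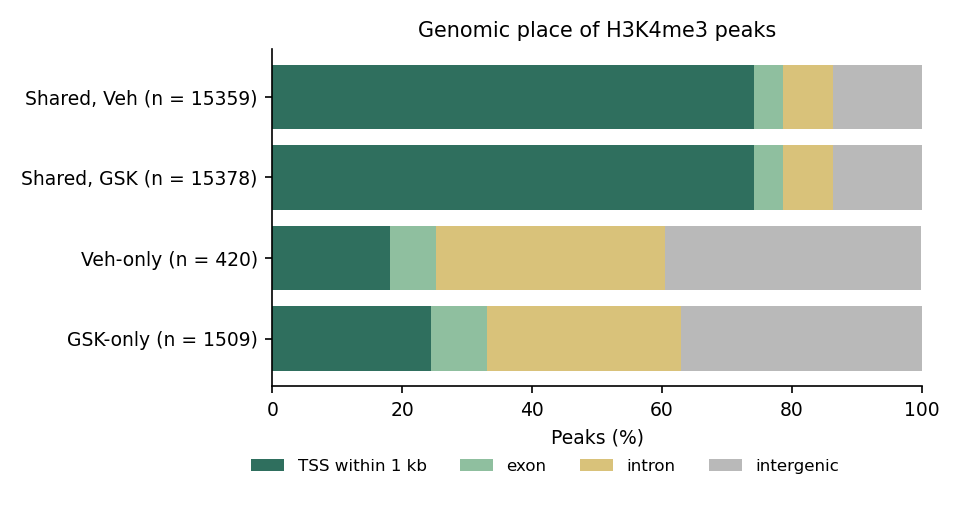
Genomic place of H3K4me3 peaks as a percentage of each set, for shared peaks of each list and for peaks of 1 list, sorted into those with a TSS within 1 kb and, of the rest, those overlapping an exon, an intron or neither. A TSS was near 74.1% and 74.2% of the shared peaks and near 18.1% of Veh-only and 24.5% of GSK-only peaks.

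GSK-only peaks at promoters sat on CpG-rich DNA more often than Veh-only ones. In the 500 bp around the peak centre, the ratio of observed to expected CpG was 0.6 or more for 248 of the 369 GSK-only peaks at a TSS, or 67.2% (62.3 to 71.8), and for 34 of the 76 Veh-only ones, or 44.7% (34.1 to 55.9). The share among shared peaks at a TSS was 76.9% (76.1 to 77.7) in the Veh list and 77.9% (77.1 to 78.6) in the GSK list. Among weak peaks at a TSS it was 65.7% (60.1 to 71.0) for GSK-only, 46.6% (35.6 to 57.9) for Veh-only and 67.8% (64.1 to 71.4) for shared Veh peaks, so that GSK-only promoters resembled weak shared ones in CpG content and Veh-only ones were lower. The weak sets were not matched for strength, with a median −log10 p of 7.24 for GSK-only, 6.66 for Veh-only and 7.84 for shared Veh peaks. With lists of equal length the CpG-rich shares were 71.1% (64.9 to 76.6) of 228 GSK-only and 51.5% (44.0 to 58.8) of 171 Veh-only peaks. Away from TSSs, 11.6% of GSK-only and 7.85% of Veh-only peaks were CpG-rich.

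The other antibodies show what chromatin these promoters carried. Of the 369 GSK-only peaks at a TSS, 285 overlapped an H3K4me1 peak and 255 an H3K4me2 peak already in Veh cells, or 77.2% and 69.1%. In GSK cells it was 309 with H3K4me1, or 83.7%, and 220 with H3K4me2, or 59.6%. Pol II and H3K27ac were almost absent, with a Pol II peak at 8 in Veh and 7 in GSK cells and an H3K27ac peak at 8 and 1. Shared Veh peaks at a TSS carried Veh Pol II at 54.9%, Veh H3K27ac at 37.9% and Veh H3K4me1 at 32.7%. This profile of H3K4me1 and H3K4me2 without Pol II was also that of weak shared peaks. Among GSK peaks at a TSS with a −log10 p under 10, Veh H3K4me1 was at 72.3% (67.8 to 76.3) of 429 shared and 78.2% (73.1 to 82.6) of 289 GSK-only peaks, and Veh Pol II at 3.50% and 2.08%. Veh-only peaks under the same ceiling carried less of the lower marks, with Veh H3K4me1 at 49.3% (38.2 to 60.5) and Veh H3K4me2 at 45.2% (34.3 to 56.6) of 73. These sets were not matched for strength. The median −log10 p was 6.66 for Veh-only, 7.24 for GSK-only and 8.27 for shared GSK peaks.

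**Figure D3:**
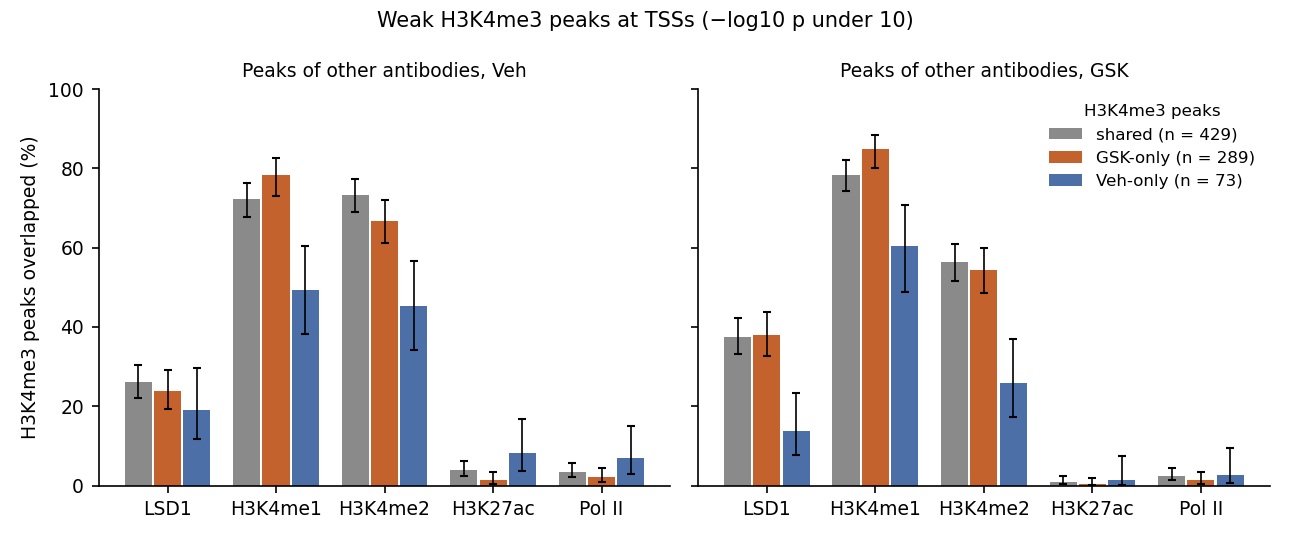
Share of weak H3K4me3 peaks at a TSS (−log10 p under 10) that overlap a peak of another antibody in Veh cells (left) and GSK cells (right), for 429 shared GSK peaks (grey), 289 GSK-only peaks (orange) and 73 Veh-only peaks (blue), with Wilson 95% intervals. H3K4me1 and H3K4me2 are frequent at shared and GSK-only peaks, and H3K27ac and Pol II are at under 10% of each set.

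The same was asked from the side of the promoters. Of 14880 TSSs with no Veh H3K4me3 peak within 1 kb, 473 had a GSK peak, or 3.18% (2.91 to 3.47). Where a Veh H3K4me2 peak was present, the share was 334 of 790, or 42.3% (38.9 to 45.8), and where it was not, 139 of 14090, or 0.987% (0.836 to 1.16). At CpG-rich promoters with Veh H3K4me2 it reached 48.3% (43.7 to 52.8), against 3.87% (3.03 to 4.92) of CpG-rich promoters without H3K4me2. In the opposite direction, of 284 TSSs with GSK H3K4me2 and no GSK H3K4me3, 30 had a Veh H3K4me3 peak, or 10.6% (7.50 to 14.7). With lists of equal length both directions came closer, to 29.0% (25.9 to 32.2) gained and 20.5% (16.9 to 24.7) lost. The GSK H3K4me2 list is itself the shorter one, at 9437 peaks beside 15219, so fewer promoters entered the second comparison.

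By gene, 12843 genes had H3K4me3 within 1 kb of a TSS in both treatments and 11616 in neither. It was present in GSK cells only at 377, which is 2.83% of the 13303 genes with a peak in either treatment, and in Veh cells only at 83, or 0.624%. Of the 377, 358 had a GSK-only peak there and 19 had a shared peak that came within reach of the TSS in GSK cells only. Of the 83, 71 had a Veh-only peak. With lists of equal length the numbers were 237 and 171. Protein-coding genes were 85.1% of the GSK-only and 80.7% of the Veh-only genes, against 91.5% of genes with a peak in both.

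The strongest GSK-only peak at a promoter was that of Zxdb, a zinc finger gene of the X chromosome, at 8.25-fold enrichment (−log10 p 19.2) over a width of 178 bp, which is narrower than any Veh peak. It lay 742 bp from the TSS and overlapped no peak of another antibody. That of She, an SH2-domain adaptor, ran from 89831190 to 89831981 on chromosome 3, enriched 6.14-fold (−log10 p 18.8). That of Tent5b, a non-canonical poly(A) polymerase, ran from 133480082 to 133480665 on chromosome 4, enriched 6.38-fold (−log10 p 18.3). At Hoxa13, a homeobox factor of the posterior body, the peak ran from 52260263 to 52260888 on chromosome 6, enriched 7.00-fold (−log10 p 17.9). The peaks of She, Tent5b and Hoxa13 contain the TSS, are 584 to 792 bp wide, and overlap peaks of LSD1, H3K4me1 and H3K4me2 in both treatments. Even so, they ranked from 11594 to 11777 of the 16887 GSK peaks by −log10 p.

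The peak at Grb10, an imprinted adaptor of the insulin and growth factor receptors, was 290 bp wide, had a fold of 6.72 and overlapped LSD1, H3K4me1 and H3K4me2 in GSK cells only. At Enho, which encodes the secreted peptide adropin, the peak lay 184 bp from the TSS and was 280 bp wide with a fold of 7.54. The peak of Gm960 lay 41 bp from the TSS and was 283 bp wide with a fold of 7.21. That of Meis2, a homeobox factor, lay 495 bp from the TSS, was 222 bp wide, and overlapped no peak of another antibody. A peak of Veh cells lay 1409 bp from it, whereas the nearest Veh peak was 13644 bp or more from the other 7 promoter peaks.

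Away from TSSs, the strongest GSK-only peak of all reached 6.83-fold enrichment (−log10 p 29.2). It lay in intergenic sequence on chromosome 6, 28173 bp from the TSS of the Y RNA gene Rny3, and overlapped LSD1, H3K4me1 and H3K4me2 in both treatments. It was 195 bp wide, which is under the narrowest Veh peak. The next lay on chromosome 9 from 96759308 to 96759540, 6022 bp from C430002N11Rik, at 9.01-fold (−log10 p 25.7). The others lay 88514 bp from Rpl34 and 78837 bp from 3830408C21Rik, with folds of 7.87 and 7.58. All 4 overlapped Veh H3K4me1 and Veh H3K4me2.

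The strongest Veh-only promoter peaks were weaker still. At Lta, which encodes the cytokine lymphotoxin alpha beside Tnf, the peak was 238 bp wide enriched 1.98-fold (−log10 p 13.6) and 842 bp from the TSS. It lay 2236 bp from the nearest GSK peak. Those of Zfp97 and Morn4 reached −log10 p values of 11.5 and 11.3 at 5.78-fold and 2.71-fold. The 5 others, at Atcay, 1810006J02Rik, Arhgap9, A530040E14Rik and Akain1, had a −log10 p from 8.62 to 9.94. Only that of A530040E14Rik held its TSS. Away from TSSs, the strongest lay 19545 bp from Trim71 (−log10 p 16.4, fold 6.97), in an intron of Nfil3 (14.1 and 2.07), in an intron of Wwc2 (13.1 and 6.29) and 49632 bp from the TSS of Gm7592 (12.9 and 4.88). Nfil3 encodes a basic leucine zipper factor of lymphocytes.

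The GSK-only genes held many regulators of embryonic patterning, and this theme was chosen after their names were seen. Counting all members of their families by symbol (Fox, Sox, Lhx, Pax, Tbx, Zic and Hox among them), 61 of 188 genes had a Veh peak, 19 had a GSK peak only and 1, Nkx3-2, a Veh peak only. Of the 127 with no Veh peak, 15.0% (9.79 to 22.2) had a GSK peak, against 3.65% (3.26 to 4.09) of 7831 other protein-coding genes. Among genes with a CpG-rich TSS the shares were 18.6% (11.8 to 28.1) of 86 and 13.6% (11.9 to 15.5) of 1400, whose intervals overlap. Among the 19 were Foxb2, Foxd3, Foxe3, Sox18, Lhx6, Lhx9, Pax6, Tbx2, Zic1, Zic2, Hoxa11, Hoxa13, Pitx1, Emx2, Hand2 and Twist1. With lists of equal length 10 genes of these families were GSK-only and 4 Veh-only.

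The peaks at these genes were weak, and most lay on CpG-rich DNA. Foxe3, a lens factor, had a GSK peak 589 bp wide enriched 6.20-fold (−log10 p 13.9), where the CpG ratio was 1.17. Twist1, a factor of mesoderm, had one of 385 bp enriched 5.65-fold (−log10 p 10.7). At Pax6, an eye and brain factor, the peak was 564 bp wide with a −log10 p of 5.51, near the floor of the list.

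Genes of signals, receptors and channels are read against the same 3.65% of other protein-coding genes without a Veh peak, and 13.6% of those with a CpG-rich TSS. Of 52 Wnt, Fgf and Bmp genes, 13 had a peak in both treatments, 6 in GSK cells only (Wnt6, Wnt7a, Wnt9a, Fgf8, Fgf9 and Bmp8b) and 1 in Veh cells only (Fgf15), so that 15.8% (7.44 to 30.4) of the 38 without a Veh peak had a GSK peak. Of 24 receptors of the Fzd and Eph families, 11 had a peak in both and 4 in GSK cells only (Fzd1, Fzd2, Epha7 and Ephb3), or 30.8% (12.7 to 57.6) of 13. Of 103 potassium and sodium channel genes, 31 had a peak in both and 6 in GSK cells only, or 8.33% of 72. The 95% intervals of all 3 groups include the CpG-rich share. The groups were not limited to genes with a CpG-rich TSS and their intervals are wide, so the part of CpG content was not tested here. The olfactory receptors, whose promoters are poor in CpG, had 1 gene of 1103 with a peak in both and none in a single treatment.

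At T cell genes, the H3K4me3 places were almost all shared, as they were over all genes, where 12843 of the 13303 with a peak in either treatment had it in both and 2.83% in GSK cells only. Of 10 inhibitory receptor genes, 9 had a peak in both treatments and Cd244a had none. All 13 T cell identity genes with a curated TSS and all 20 genes of H3K4 methylation enzymes had it in both, Kdm1a itself included (1182 bp in Veh and 1216 bp in GSK cells). So did 12 of 14 memory and progenitor genes, 11 of 12 exhaustion and effector transcription factors and 12 of 13 interferon response genes. Bach2 was not among the 12 memory genes, since its curated TSS had no peak within 1 kb. A wide shared peak overlaps that gene, 164653 bp from the curated TSS in Veh cells. Of 12 effector and cytokine genes, 6 had a peak in both and 4 in neither. The other 2 were GSK-only, Ccl3 with a peak of 232 bp and a −log10 p of 5.82, and Xcl1 with a peak of 605 bp and a −log10 p of 7.26. Both genes encode chemokines released by activated CD8+ T cells. Of 39 Hox genes, 7 had a peak in both and 2 in GSK cells only (Hoxa11 and Hoxa13), and of 20 neuronal genes 2 had it in both and none in a single treatment.

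Shared peaks barely differed in fold enrichment. The GSK to Veh ratio of fold enrichment had a median of 1.02 over the 15284 pairs, and its 10th and 90th percentiles were 0.916 and 1.16. It was 1.5 or more at 60 pairs and 1/1.5 or less at 1. The log2 ratios of fold and of width had a Pearson correlation of −0.10 over all pairs. With a TSS within 1 kb the correlation was −0.19, so narrower calls tended weakly to a higher fold. Across pairs, the log2 fold of the lists had a Pearson correlation of 0.95 and the log2 width one of 0.92, as a description of pairs that share their sequence and their local background.

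Width changed little in the middle of the distribution and more away from promoters. The median GSK minus Veh width was −8 bp (95% order-statistic interval −9 to −6), and 68.7% of pairs differed by less than 100 bp. With a TSS within 1 kb it was −14 bp (−16 to −13) over 11339 pairs, and without one 22 bp (18 to 26) over 3945 pairs. A GSK peak wider by 200 bp or more was seen at 1451 pairs and a narrower one at 652.

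The edges were then read against the direction of transcription. For the 8729 pairs that held TSSs of a single strand, the upstream edge lay a median of 309 bp before the TSS in Veh cells and 331 bp in GSK cells, and the downstream edge 832 bp and 812 bp behind it. Pair by pair, with outward shifts in GSK cells counted as positive, the upstream edge moved by a median of 4 bp (3 to 5) and the downstream edge by −18 bp (−19 to −17). The downstream edge had moved inward at 5670 pairs, or 65.0%, and outward at 2982. The upstream edge had moved inward at 3947, or 45.2%, and outward at 4670. H3K4me3 thus ended slightly nearer to the TSS on the side of the gene body in GSK cells, at most promoters.

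This asymmetry followed the gene and not the chromosome strand. On the plus strand the medians were 3 bp upstream and −19 bp downstream (4365 pairs), and on the minus strand 4 bp and −18 bp (4364 pairs). At the 1451 pairs with TSSs of both strands, where each edge faces a gene body, the left edge moved by −16 bp (−18 to −13) and the right edge by −14 bp (−17 to −12). At the 5104 pairs with no TSS inside, the medians were 6 bp (4 to 8) and 4 bp (2 to 6). The shift is small beside the spread between pairs, whose middle 50% ran from −54 to 14 bp for the downstream edge, and it is of the size of the difference between the narrowest peaks of the lists (197 and 177 bp). The part of the calling in the shift was not tested.

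**Figure D4:**
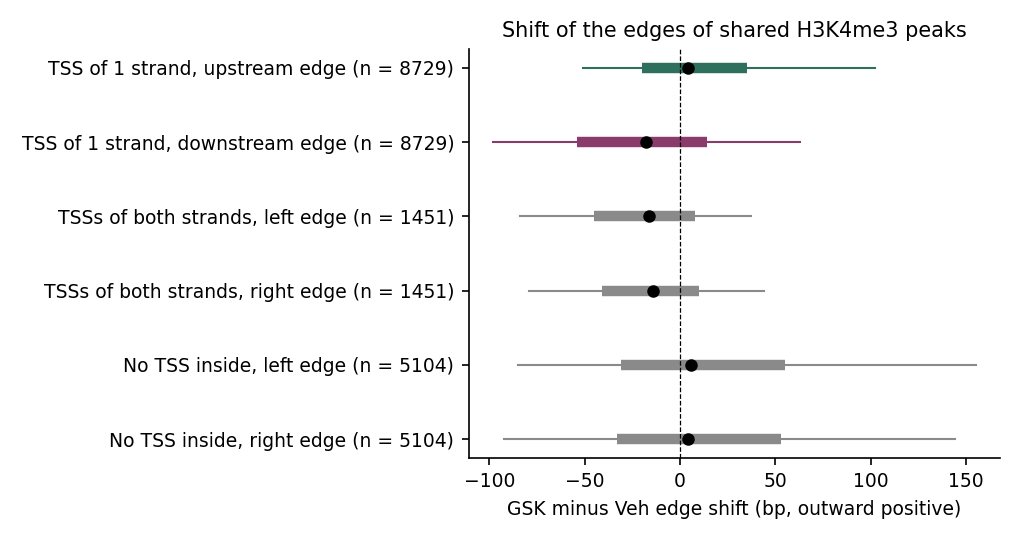
GSK minus Veh shift of peak edges in bp, outward positive, for pairs with TSSs of 1 strand, TSSs of both strands and no TSS inside. Points are medians, thick bars the middle 50% and thin bars the 10th to 90th percentiles. The downstream edge at TSSs of 1 strand and both edges at TSSs of both strands have medians from −18 to −14 bp, and the other 3 lie between 4 and 6 bp.

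The downstream shift was larger where Pol II was called and in wider peaks. It was −24 bp (−25 to −22) at 3496 pairs with a Pol II peak in both treatments and −10.5 bp (−12 to −8) at 3618 pairs with none in either. Over 5 groups of pairs of equal size, ordered by peak width, it went from −4.5 bp in the narrowest to −28.5 bp in the widest, while the upstream shift went from 10 bp to 0 bp. Pairs with Pol II are wider, so both were read together. In group 4 of 5 by width the downstream shift was −25 bp (−28 to −22) with Pol II and −13 bp (−18 to −5) without, and in the widest it was −29 bp (−31 to −24) and −31.5 bp (−41 to −24). A Veh LSD1 peak made little difference, with −19 bp (−20 to −17) at 5954 pairs that had one and −17 bp (−19 to −14) at 2775 that did not.

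**Figure D5:**
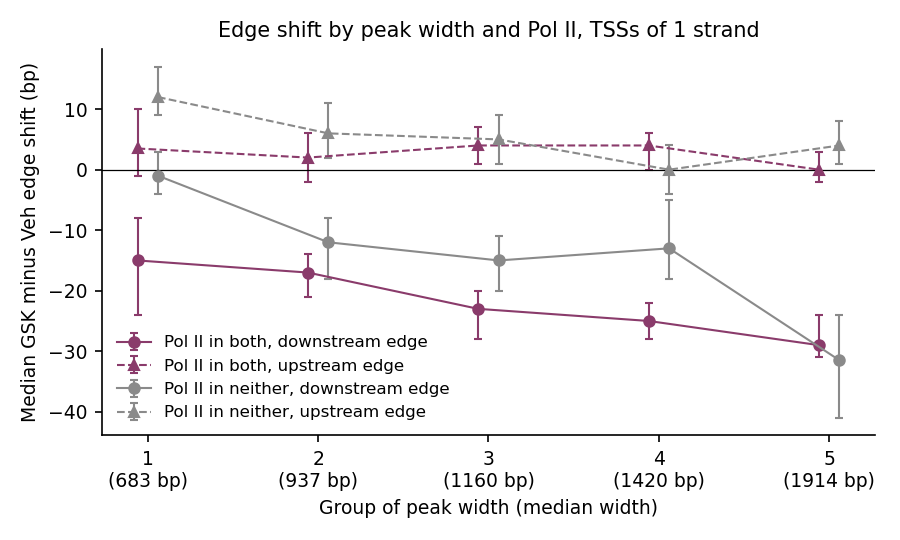
Median GSK minus Veh shift in bp of the downstream (circles) and upstream (triangles) peak edge in each of 5 groups by peak width, for pairs at TSSs of 1 strand with Pol II in both treatments (purple) or in neither (grey), with 95% order-statistic intervals. The downstream medians lie from −1 bp (−4 to 3, in the narrowest group without Pol II) to −31.5 bp, and the upstream medians between 0 and 12 bp.

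The other histone marks moved at both edges at TSSs of 1 strand. H3K4me2 peaks were drawn in by 49 bp upstream and 60 bp downstream, H3K27ac peaks by 82 bp and 95 bp, and H3K4me1 peaks extended by 45 bp and 39 bp. The H3K4me2 and H3K27ac lists are shorter in GSK cells and the H3K4me1 list is longer, so their edges moved in the direction of the list length.

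The 6 largest losses of width at TSSs of 1 strand all lay on the gene-body side. Over all such pairs, losses of this size had less room upstream. In Veh cells the upstream edge lay a median of 309 bp from the TSS, with a 90th percentile of 743 bp. For the downstream edge these were 832 and 1421 bp. The part of peak position in the side of the 6 largest losses was not tested. The H3K4me3 peak of Nr4a3, an orphan nuclear receptor induced by T cell receptor signals and the second widest in Veh cells, measured 5042 bp in Veh and 3859 bp in GSK cells, and its downstream edge moved by −1181 bp while the upstream one moved by −2 bp. At Chd3, a subunit of the NuRD remodeller, the width went from 3389 to 1946 bp with a downstream shift of −1424 bp. At Pdk1, a kinase that restrains pyruvate dehydrogenase, it went from 2783 to 1365 bp with a downstream shift of −1322 bp. The width went from 1872 to 627 bp at Wnt10b, from 1992 to 895 bp at Limk1 and from 2381 to 1367 bp at Usp25. In each of these 6 pairs the upstream edge stayed within 100 bp. A width is the length of the call and not a level of the mark. The fold belongs to the called stretch, which differed between the lists, so it is no level of the mark either. The fold went from 3.97 to 6.42 at Pdk1, from 3.21 to 3.98 at Chd3 and from 3.87 to 4.70 at Usp25, and it was higher in GSK cells at 5 of the 6, while at Wnt10b it went from 3.28 to 3.16.

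Gains of width were divided between the sides. At Myadm the peak grew from 200 to 1757 bp and at Tmem82 from 260 to 1610 bp, each on the upstream side. At Nt5e, which encodes the ectoenzyme CD73, it grew from 1270 to 2489 bp with a downstream shift of 1213 bp. Kif26b, Foxq1 and Sh2d3c gained 1229, 1229 and 1164 bp, each downstream. Sox4 had a downstream shift of 1295 bp, the largest outward one. The largest inward upstream shifts were −847 bp at Wiz, −794 bp at Nono and −646 bp at F2rl2.

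The listed T cell genes differed in the direction of their width changes. As background, 13.1% of the 12822 genes with a one-to-one pair had a peak wider by 100 bp or more in GSK cells and 14.1% one narrower by as much, and the median change was −17 bp. These shares depended on peak width. At TSSs of 1 strand they were 23.1% and 9.84% in the narrowest of the 5 width groups, and 11.8% and 21.3% in the widest. The lists were not matched for width. Of 12 interferon response genes, 6 were wider and 1 narrower by that measure, with a median of 85.5 bp. Ifit3, an antiviral interferon-induced gene, went from 537 to 1382 bp with a downstream shift of 835 bp. Rsad2 (viperin) went from 385 to 598 bp, Ifit1 from 1020 to 1221 bp, Oas1a from 545 to 716 bp, Mx1 from 1183 to 1345 bp and Irf7 from 1035 to 1148 bp. Ifih1 went from 1167 to 1061 bp. Several of these peaks were weak, with a Veh −log10 p of 9.07 at Ifit3 and 9.41 at Rsad2.

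Of 12 memory and progenitor genes with a pair, 4 were wider by 100 bp or more and none narrower, with a median of 79 bp. The peak of Ccr7, the lymph node homing receptor, went from 2186 to 2519 bp with an upstream shift of 398 bp and a downstream shift of −65 bp. Slamf6, a marker of progenitor exhausted cells, went from 2171 to 2432 bp, S1pr1 from 3841 to 4070 bp and Il7r from 2271 to 2403 bp. At Ccr7, Slamf6 and S1pr1 the gain was upstream, by 398, 230 and 264 bp. Tcf7, which encodes the progenitor factor TCF-1, had an upstream shift of 214 bp and a downstream shift of −121 bp, so that its width changed by 93 bp. The fold went from 3.84 to 3.28 at Slamf6, from 2.59 to 2.48 at S1pr1 and from 3.42 to 3.64 at Il7r. At Ccr7 it was 3.07 and 3.06, so wider did not mean a higher fold. The paper reports increased H3K4me3 at the Slamf6 promoter with the inhibitor. Its comparison is one of signal, which was not made here, and the fold of a called stretch is no level of the mark.

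Of 10 exhaustion and effector transcription factor genes with a pair, none was wider by 100 bp or more and 3 were narrower, with a median of −19.5 bp. Most of the 10 peaks were as wide as those of the widest group, where 11.8% were wider and 21.3% narrower by as much. The 3 narrower ones were Nr4a3, Tbx21 (2437 to 2215 bp, with a downstream shift of −353 bp) and Tox (1808 to 1658 bp, with a downstream shift of −151 bp and an upstream shift of 1 bp). The fold went from 3.71 to 3.99 at Tbx21 and from 4.19 to 4.81 at Tox. Tbx21 encodes T-bet, the factor of effector differentiation, and Tox the factor of exhaustion. Ikzf2 had no single pair, because its Veh peak of 2400 bp was met by a GSK peak of 1425 bp and another beyond a gap of 713 bp, which is under the smallest gap in the Veh list.

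The 9 inhibitory receptor genes went both ways, with 3 wider and 2 narrower by 100 bp or more and a median of 28 bp. Pdcd1, which encodes PD-1, went from 996 to 668 bp, with a downstream shift of −444 bp and an upstream shift of 116 bp. Its fold went from 6.07 to 6.43 and its −log10 p from 27.1 to 19.4. The paper reports significantly reduced H3K4me3 at the Pdcd1 promoter and a similar pattern at Entpd1. That is a comparison of signal, which was not made here. Tigit went from 593 to 466 bp. Cd200r1 went from 783 to 1170 bp with a fold of 7.67 in Veh and 5.79 in GSK cells. Havcr2 (TIM-3) went from 1056 to 1216 bp and Entpd1 (CD39) from 1504 to 1605 bp. The −log10 p went from 34.9 to 25.8 at Entpd1 and from 37.2 to 24.2 at Cd200r1. It went from 14.6 to 16.2 at Tigit and from 10.4 to 11.3 at Havcr2. Among the 13 T cell identity genes, Lat and Cd28 gained 265 and 101 bp, and Zap70, the kinase of the T cell receptor, went from 2141 to 1359 bp with a downstream shift of −761 bp while its fold went from 4.56 to 5.57. Effector genes were wider at Ccl4 (1132 to 1262 bp) and Prf1 (775 to 881 bp) and narrower at Ifng (1070 to 970 bp).

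The widest peaks of each list all overlapped a peak of the other. In Veh cells they were at Brd2, which encodes a BET protein, with 5480 bp, at Nr4a3 with 5042 bp, and upstream of the curated TSS of Bach2, a repressor that keeps T cells in a memory state, with 4751 bp. In GSK cells they were at Bach2 with 4793 bp, at Clec2d with 4790 bp and at Jarid2 with 4576 bp. The Bach2 peak ran from 32248032 to 32252782 on chromosome 4 in Veh cells and from 32248117 to 32252909 in GSK cells, and the Veh peak was 164653 bp from the nearest curated TSS. The Veh peak at Brd2 was met by 2 GSK peaks with a gap of 738 bp between them, again under the smallest Veh gap. In all, 37 Veh peaks were met by 2 or more GSK peaks, 26 of them with such a gap, and 19 GSK peaks by 2 or more Veh peaks.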

How the data were processed

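ChIP-seq peak lists of 6 antibodies in Veh and GSK cells were used, with the H3K4me3 lists as the subject. The submitters' notes name Bowtie2, MACS2, bedtools, edgeR and the mm10 build, and the study's supplement describes peak calling against an input library. Each deposited broadPeak row gives a score, a fold enrichment over the authors' local background, and −log10 of a p-value and of a q-value, all as the authors' caller wrote them for 1 library. The deposited lists of LSD1 and Pol II hold a summit position as well. The smallest −log10 q was 3.01 in the Veh and 3.02 in the GSK H3K4me3 list. Read depth was not computed, because the lists hold no counts.

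Peaks were compared at an overlap of 1 bp in Python 3.11.15 with pandas 2.3.3, numpy 2.4.6 and scipy 1.17.1. TSSs were the 30342 curated RefSeq ones of 24919 genes on GRCm38.p6. CpG content was read in 500 bp around a peak's centre or a TSS and called rich at an observed to expected ratio of 0.6 or more. Shares have Wilson 95% intervals, and medians have order-statistic intervals over peaks, which are not replicates. The code was tested on an altered copy of the Veh H3K4me3 list, and it recovered the fixed edge shifts and the dropped and added peaks. Named peaks were the 8 with the highest −log10 p at TSSs and the 4 away from them in each set of unshared peaks, the 6 largest gains and losses of width, the 3 largest edge shifts each way, the 3 widest peaks, and the genes of the lists. Gene lists and members were chosen with earlier results of these data known, and the families of developmental, signalling, channel and olfactory genes after the values were seen. Some items that these rules name are not reported here.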

Additional observations from a re-analysis of the deposited data

How the results depend on the processing

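Of 72 recomputed values, 42 moved by less than their interval or by less than 1.5 times, and 30 moved further. No width change or edge shift changed sign and no fold ratio crossed 1, while shares and counts have no sign to change. The order of Veh-only and GSK-only values did change in places. It changed for the counts with lists of equal length, and for the share at a TSS with an overlap of 50%. As deposited, 97.3% of Veh and 91.1% of GSK H3K4me3 peaks were shared. With an overlap of 50% of both peaks the shares were 93.4% and 87.3%, 1044 peaks were Veh-only, and 29.8% of Veh-only and 28.9% of GSK-only peaks were at a TSS. With a −log10 q of at least 5 the shares were 97.9% and 91.6%, the unshared peaks at a TSS were 25.5% and 29.3%, and the fold ratio was 1.02. With lists of equal length both shares were 94.9%, 810 peaks were Veh-only and 797 GSK-only, and 28.6% of the latter were at a TSS. A TSS window of 2.5 kb gave 27.9% of GSK-only peaks, and GENCODE TSSs gave 30.7% of Veh-only and 34.9% of GSK-only peaks. Over pairs at a TSS alone the median width change was −14 bp and the fold ratio 1.01. Chosen after seeing the data, the GSK list brought to the smallest Veh width and gap gave shares of 97.1% and 91.9%. A −log10 p of at least 10, also chosen after seeing the data, gave 98.1% and 93.1%, with 254 Veh-only and 963 GSK-only peaks, 32.7% and 37.4% of them at a TSS, a width change of −12 bp and a fold ratio of 1.01. The cause of these moves was not tested. Over all alternatives the upstream shift was from 3 to 4 bp and the downstream shift from −19 to −17 bp. Joining peaks within 500 bp changed nothing, since the smallest gaps were 789 and 710 bp. No paired analysis was possible because each treatment had 1 H3K4me3 library, which is also why no replicate could be left out.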

Other observations

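All 82 Veh H3K4me3 peaks that overlapped a tRNA gene had a GSK partner, and 93 of 95 GSK peaks had a Veh partner, beside 97.3% of all Veh and 91.1% of all GSK peaks. The share of GSK-only peaks by chromosome ran from 5.01% on X to 12.1% on 16, and that of Veh-only peaks from 1.11% on 15 to 4.68% on 1. No peak of either list lay on chromosome Y, which holds 93 curated TSSs, and both lists had a peak at the TSS of Xist, the RNA that silences an X chromosome.

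Away from TSSs, GSK-only peaks overlapped Veh H3K4me1 at 62.5% and Veh H3K4me2 at 45.9% of 1140, with Veh H3K27ac at 25.1%, a mark that was at 2.17% of the GSK-only peaks at a TSS. A Veh Pol II peak was at 12.3% of those away from TSSs. In GSK cells H3K27ac was at 7.63% of the same places. The GSK H3K27ac list is shorter, at 2751 peaks beside 7410, and at shared Veh peaks away from TSSs the shares were 34.1% with the Veh and 13.9% with the GSK list.

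Unshared peaks seldom lay beside a peak of the other list. The other list had a peak within 1 kb of 4.29% of Veh-only and 2.32% of GSK-only peaks, and the median distance was 18633 bp and 19930 bp.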
